A study of Mus musculus with 55 samples.

Results

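Complement and coagulation factors were followed across 10 cell populations sorted from mouse liver, as a set of 46 genes chosen by name: 24 of complement with its receptors and regulators, and 22 of coagulation, its inhibitors and fibrinolysis. All 46 were found among the 24478 gene symbols of the table; 16 had more than 1 transcript row, of which the most abundant was taken. All animals were of strain C57B/L6, and RNA was taken from cells sorted by FACS (fluorescence-activated cell sorting) into TRIzol, either from normal liver or from liver after partial hepatectomy (PH, surgical removal of part of the liver). The time after surgery, age and sex are not given, and the labels do not say whether replicates came from separate animals, so p-values measure the spread between libraries, which may be technical. Of 55 libraries, 27 were from normal liver and 28 from PH liver. The populations were hepatocytes (HC, 4 normal and 4 PH libraries), clonal biliary epithelial cells (cBEC, 4 and 2), biliary epithelial cells (BEC, 4 and 2), non-progenitor ducts (NPD, 2 and 2), endothelial cells (EC, 2 and 3), liver sinusoidal endothelial cells (LSEC, 3 and 5), Kupffer cells (KC, the resident macrophages, 2 and 3), hepatic stellate cells (HSC, 2 and 3), Thy1 cells (2 and 2) and blood cells (2 and 2). By its title PH cBEC 1 is a PH library, although its treatment label reads normal, and the title was followed. Values are FPKM (fragments per kilobase of transcript, scaled to library size), which are corrected to transcript length, so levels of different genes can be set side by side; the read depth behind them is unknown.

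As background, complement is a cascade of plasma proteins that marks targets and recruits phagocytes. C1q and the mannose-binding lectins recognise a target, C2, C4 and factor B form the convertases that cleave C3, and C6, C8 and C9 build the membrane attack pore. Coagulation is a parallel cascade of proteases that ends in thrombin and a crosslinked fibrin clot; antithrombin, protein C, protein S, thrombomodulin and tissue factor pathway inhibitor restrain it, and plasmin dissolves the clot. Hepatocytes are known as the main source of most of these plasma proteins, macrophages of C1q and properdin, and endothelial cells of factor VIII and von Willebrand factor.

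Summed FPKM ran from 960918 to 1203197 in the HC libraries and from 624726 to 848630 in all others, without overlap. Low values in HC also carry fewer decimals (C1qa at 0.04 in normal HC 3, against 0.1886 in normal cBEC 3). Whether the HC libraries were processed in another way was not tested. Levels in HC are set against those of other populations with this limit. Marker lists bore out most labels: in normal liver the hepatocyte list (6 genes) summed to 88510 to 94550 FPKM in HC, the Kupffer list (6 genes) to 9718 to 10830 in KC, the LSEC list (6 genes) to 5185 to 10010 in LSEC and the stellate list (6 genes) to 8842 to 11000 in HSC. Other lists stood beside them in some populations. The LSEC list reached 3329 to 4606 in normal KC and 3010 to 6433 in normal EC, and a list of 5 mesothelial genes reached 4806 to 5143 in normal NPD, where the biliary list (6 genes) stood at 2574 to 3794. After PH the T and NK cell list in the blood libraries was 46.3 to 92.1, against 3280 to 3689 in normal blood, while their Kupffer list was 8641 to 15500. In bulk libraries such as these, fewer cells of a type and less RNA per cell cannot be told apart.

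Exact zeros limited what could be said outside hepatocytes. For the 32 members that reached 10 FPKM in a hepatocyte group, 1059 of 1504 values in the 47 other libraries (70.41%) were exactly 0. For the 14 members under that level in hepatocytes (C1qa, C1qb, C1qc, Cfp, Cfd, C3ar1, C5ar1, Cd55, F3, F8, F13a1, Tfpi, Thbd and Vwf) 11.7% of 658 values were 0. C8b, F12 and Serpinc1 were listed at 0 in all 47 libraries, and 21 of the 32 exceeded 1 FPKM in at most 5 of them. Of the 6 hepatocyte markers, Alb, Apoa1 and Ttr were also listed at 0 in every BEC, NPD, EC, LSEC, KC, HSC, Thy1 and blood library. In normal cBEC this held for Apoa1 but not for Alb and Ttr. Other genes of the list were not all at 0. The list summed to 12.46 to 24.77 FPKM in normal Thy1 cells and to at most 25.43 in PH NPD and 20.98 in PH blood. What made these zeros was not tested, and such members are described as listed at 0.

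In normal liver the members divided among 7 populations by their highest mean: 25 in HC, 6 in KC, 5 each in NPD and LSEC, 2 each in EC and blood, and 1 in HSC. None was highest in cBEC, BEC or Thy1 cells. For 41 of the 46, every library of the highest population stood above every library of all others. After PH the highest population was the same for 40 members. The exceptions were Cfb (HC to NPD), Serping1 (NPD to HSC), F3 (NPD to BEC), F8 (LSEC to EC), Thbd (EC to LSEC) and Cfd (LSEC to Thy1).

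**Figure D1:**
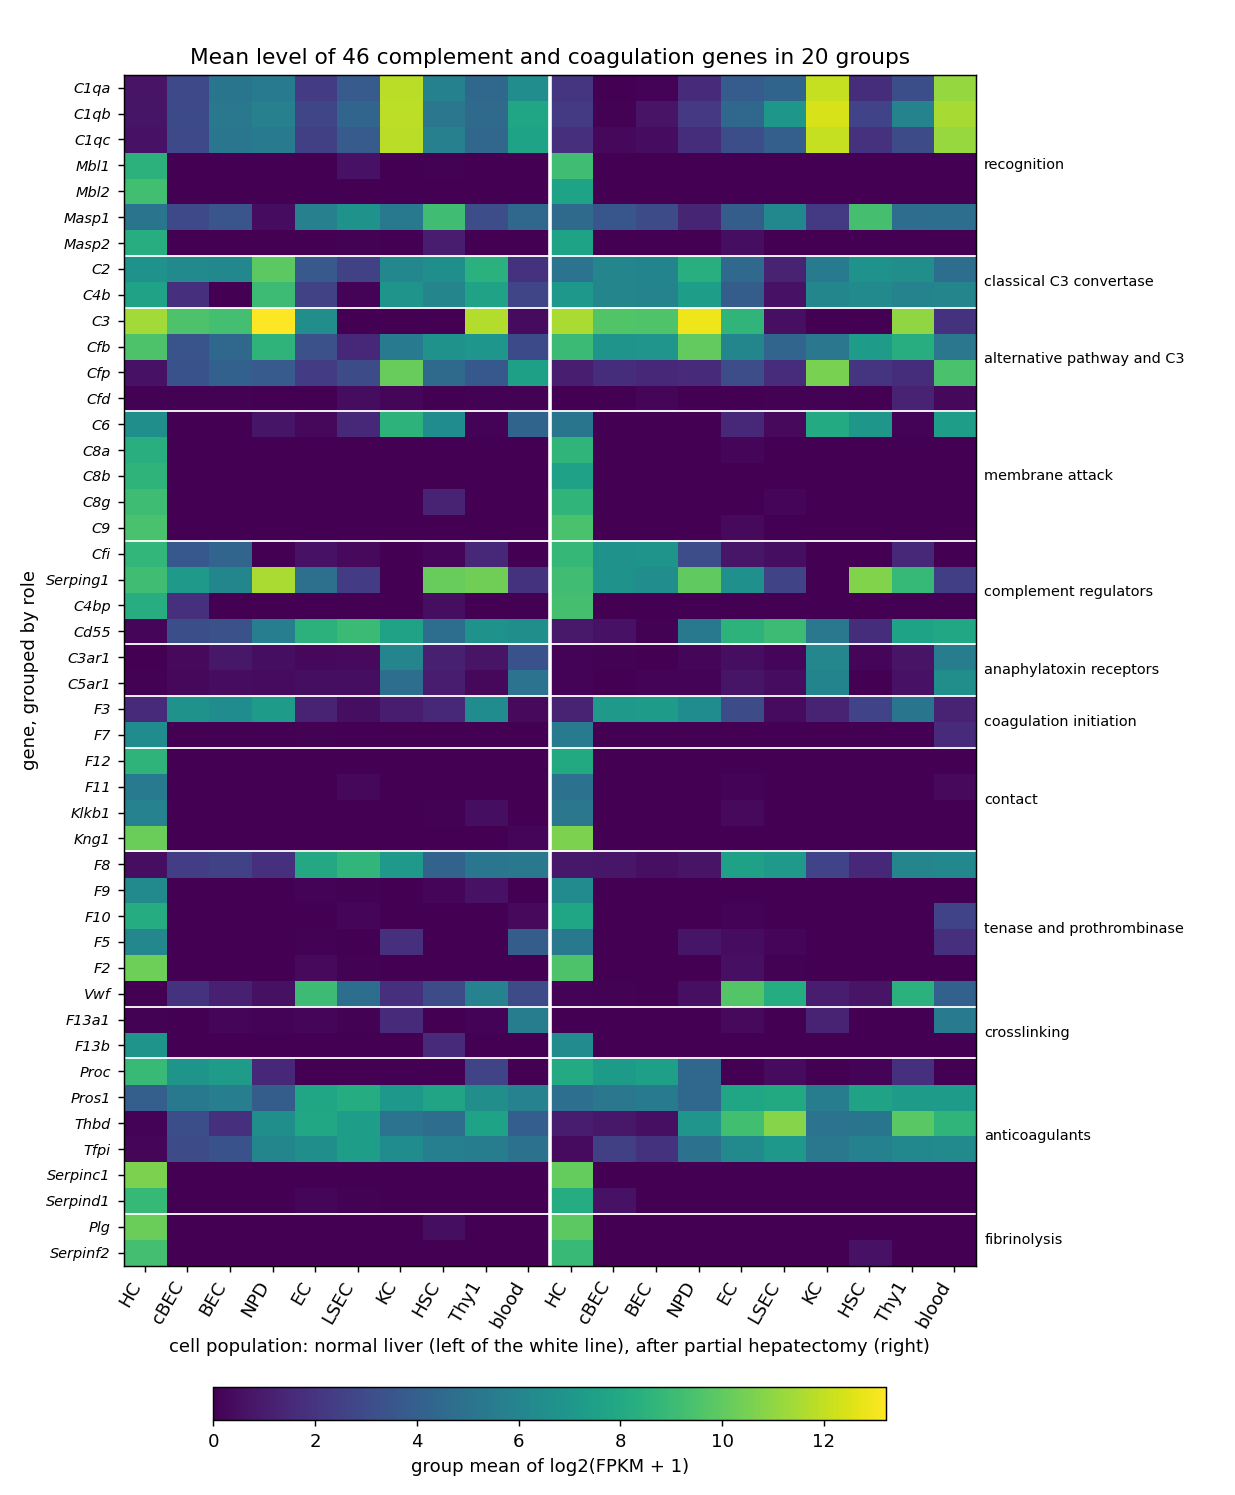
Group means of log2(FPKM + 1) for the 46 members (rows, grouped by role) in the 10 populations of normal liver (left of the white line) and after PH (right), with lighter colours for higher levels. Most membrane attack, contact and fibrinolysis rows are light only in the HC columns, the C1q rows are lightest in KC, and the C3 row is lightest in NPD.

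Each normal population was compared with the mean of the other 9 in a limma fit over the 27 normal libraries. At a limma adjusted p under 0.05, 31 of the 45 members tested were higher in HC, against 15.0% of all genes tested, and 14 were higher in KC, against 16.9%. The counts were 8 in NPD (18.8% of all genes), 8 in blood (36.6%), 7 in EC (13.7%), 7 in Thy1 cells (20.1%), 6 in LSEC (17.1%), 6 in HSC (13.5%), 4 in cBEC (36.8%) and 4 in BEC (37.1%). The counts in NPD, EC, LSEC, HSC and Thy1 cells were thus near the background, and those in cBEC, BEC and blood were under it. Members such as C8a, C8b, C9, Mbl2, F2, F11, F12, Serpinc1, Serpinf2 and Kng1 reached 1 FPKM in no normal library outside HC. They entered the test only through HC, where they are high, so the HC count is no independent support for that source. The counts under the background rest in part on the same zeros. Cfd (factor D, the protease that activates factor B) was not tested: its highest normal mean was 0.492 FPKM in LSEC, from libraries at 0, 0 and 1.48, and its highest library of all was a PH Thy1 library at 5.06 FPKM. Some members were higher in several populations: Masp1, Cd55, F8, Pros1 and Tfpi passed in EC, LSEC and KC alike, and C2, C3, C4b, Serping1 and F3 in both NPD and Thy1 cells. The LSEC list stood at 3329 to 4606 FPKM in normal KC, and the mesothelial list at 4806 to 5143 in normal NPD and 1561 to 2336 in normal Thy1 cells. The part of these lists in the calls was not tested.

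Several members neighbour each other on the chromosome. The table's coordinates are of the mouse build mm9, per the submitters' processing notes. Among members placed less than 200000 bases from each other there were 8 neighbouring pairs. Cfb (chr17:34993319-34999459) ends 87 bases before C2 (chr17:34999547-35019045), both on the minus strand, and in normal liver Cfb was highest in HC and C2 in NPD. Likewise Cd55 (highest in LSEC) and C4bp (highest in HC) are neighbours on chromosome 1, and C4b (highest in NPD) lies near Cfb on chromosome 17. C8b and C8a on chromosome 4, F7 and F10 on chromosome 8, and F11 and Klkb1 on chromosome 8 were pairs with both members highest in HC. The C1q chains C1qb (chr4:136436061-136442092), C1qc (chr4:136445717-136448829) and C1qa (chr4:136451831-136454759) stand side by side on the minus strand and were all highest in KC.

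In normal liver 25 members were highest in hepatocytes. In HC, antithrombin (Serpinc1) was at 1594 ± 132 FPKM (SD, n = 4), prothrombin (F2) at 1261 ± 65.3, plasminogen (Plg, the precursor of plasmin) at 1225 ± 171 and kininogen (Kng1, the cofactor of the contact system) at 1210 ± 194. These 4 stayed under 2 FPKM in any of the other 47 libraries. Factor B (Cfb) followed at 733 ± 19.0, the pore protein C9 at 691 ± 175, the plasmin inhibitor Serpinf2 at 619 ± 26.7, the lectin Mbl2 at 584 ± 27.3 and the chain C8g at 577 ± 203. Protein C (Proc, the protease that inactivates factors V and VIII) was at 472 ± 36 and heparin cofactor II (Serpind1) at 467 ± 69.1.

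Of the other hepatocyte members, Cfi (factor I, which cleaves C3b and C4b) stood at 441 ± 108 FPKM, F12 (which starts the contact pathway) at 389 ± 39.3, C8b at 382 ± 50.2, the lectin Mbl1 at 370 ± 72.0 and C8a at 332 ± 83.4. C4bp (C4b-binding protein, a cofactor of factor I) was at 310 ± 64.0, Masp2 (the gene of a protease that acts with the lectins) at 306 ± 24.7 and factor X (F10) at 288 ± 39.7. The row of Masp2 is the higher of 2 and is the shorter transcript, at chr4:147976653-147978522. Whether this transcript encodes the protease part was not examined, so its level is not given as that of the protease. The lowest of the 25 were F13b (a carrier of the crosslinking enzyme) at 121 ± 45.5, F7 at 85.8 ± 9.34, F9 at 83.1 ± 38.3, F5 at 80.7 ± 48.9, prekallikrein (Klkb1) at 67.0 ± 39.8 and F11 at 48.3 ± 26.9. These last members varied widely between libraries: F11 stood at 25.01 and 25.02 FPKM in 2 of the normal HC libraries and at 70.3 and 72.8 in the other 2.

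Promoters of 34 of the 46 members were matched in RefSeq (build GRCm38.p6, from 250 bases before to 50 after the start). They were searched on both strands for the HNF1 site GTTAAT, HNF4 CAAAGTCCA, C/EBP TTGCNNAA, STAT TTCNNNGAA and NF-kB GGGANTTCC, letters known to be bound by liver and inflammatory factors. GTTAAT was found in 5 of the 20 promoters of members highest in normal HC (C4bp, F13b, F2, C8b and C8a) and in 2 of the other 14 (Cd55 and Cfp), against 7.20% of all 27025 promoters. The C/EBP letters were found in 5 of 20 (Serpinc1, F11, Klkb1, C9 and F9) and in C3 of the other 14, against 10.8% of all, and the STAT letters in 3 of 20 (C8a, Masp2 and F9) and in Pros1, against 8.47%. Neither the HNF4 letters (0.477% of all) nor the NF-kB letters (1.70%) were found in any member. Each motif was counted on its own, whether or not it overlapped another. The promoters of C4bp and C8b are shown because both hold GTTAAT or its reverse complement (capitals) and both genes changed in hepatocytes after PH, in opposite directions. They lie at chr1:130661569-130661868 (minus strand) and chr4:104766067-104766366 (plus strand) of GRCm38.p6 and are written 5′ to 3′ along the gene.
C4bp: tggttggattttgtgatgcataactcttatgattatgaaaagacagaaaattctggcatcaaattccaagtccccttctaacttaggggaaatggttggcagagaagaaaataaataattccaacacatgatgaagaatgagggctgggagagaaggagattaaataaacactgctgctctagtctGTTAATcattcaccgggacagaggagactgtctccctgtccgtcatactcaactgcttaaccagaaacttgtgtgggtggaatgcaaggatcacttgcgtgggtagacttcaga
C8b: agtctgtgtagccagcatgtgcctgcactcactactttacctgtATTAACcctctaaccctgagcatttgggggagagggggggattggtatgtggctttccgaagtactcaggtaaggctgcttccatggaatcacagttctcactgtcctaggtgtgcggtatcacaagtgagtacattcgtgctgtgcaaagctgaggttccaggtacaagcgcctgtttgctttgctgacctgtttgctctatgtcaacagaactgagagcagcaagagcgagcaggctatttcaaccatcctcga

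PH was compared with normal liver within each population with limma on log2(FPKM + 1), over genes that reached 1 FPKM in at least as many libraries as the smaller group has; a change is the difference on that log2 scale, which understates the change of low genes. In hepatocytes 6 of the 36 members tested changed (adjusted p under 0.05), against 6.19% of all genes tested. C4bp rose, against 1.78% of genes higher, and C2, Mbl2, C6, C8b and F7 fell, against 4.41% of genes lower. The median change of the members tested was -0.46, beside -0.07 for all genes. By role, 2 of the 5 membrane attack members, 1 of the 7 recognition members and 1 of the 2 initiators of coagulation fell. No member of the contact group (4 tested), of the tenase and prothrombinase group (4 tested), of the anticoagulants (4 tested) or of fibrinolysis (2 tested) passed the test. Of all members tested, 13 had an unadjusted limma p under 0.05, against 21.5% of all genes. Of the 6 hepatocyte markers Ttr (-0.85) and Cyp2e1 (-1.46) were also called lower, and the list summed to 88510 to 94550 FPKM in normal HC and 63850 to 95090 after PH; its part was not tested.

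C2, the protease of the classical C3 convertase, stood at 101, 119, 101 and 105 FPKM in the normal HC libraries and at 26.8, 27.8, 40.2 and 34.8 after PH. All PH libraries were below all normal ones, a change of -1.70 ± 0.20 (SE; limma adjusted p = 0.00102). Mbl2, a lectin that starts the lectin pathway, stood at 575, 554, 619 and 588 FPKM in normal HC and at 394, 144, 173 and 162 after PH. The first PH library stood apart from the other 3, but the groups did not overlap, and the change was -1.54 ± 0.31 (SE; limma adjusted p = 0.0181). Its relative Mbl1 was at 418, 323, 296 and 444 FPKM in normal HC and at 637, 454, 619 and 615 after PH. These groups did not overlap either, with higher PH values, but the limma adjusted p was 0.118. PH HC 1, apart for Mbl2, also differed in members that did not pass, in both directions. F2 was at 379.5 FPKM there, against 832.7 to 1061 in the other PH HC libraries, and C3 at 1365 against 3444 to 4361. C9 was at 1212 against 438.4 to 770.6. That such members did not pass therefore does not show that they were stable.

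C8b, a chain of the pore subunit C8, stood at 349, 389, 450.0 and 340.1 FPKM in normal HC and at 236, 159, 168 and 189 after PH. Every PH library was below every normal one, a change of -1.02 ± 0.21 (SE; limma adjusted p = 0.0181). Its partner chain C8a did not pass the test: normal libraries spanned 249 to 413 FPKM and PH libraries 286 to 609, so the groups overlapped. C6, which joins the pore before C8, was at 61.6, 146, 135 and 70.8 FPKM in normal HC and at 61.6, 32.7, 23.7 and 27.3 after PH. The highest PH library almost equalled the lowest normal library (61.58 against 61.59 FPKM), and the change was -1.48 ± 0.37 (SE; limma adjusted p = 0.0451).

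F7, the protease that tissue factor activates, stood at 88.2, 90.4, 72.1 and 92.6 FPKM in normal HC and at 31.0, 40.0, 56.6 and 53.0 after PH. No PH library reached the normal range, and the change was -0.94 ± 0.23 (SE; limma adjusted p = 0.0389). C4bp, the only member that rose, was at 284, 399, 309 and 249 FPKM in normal HC and at 742, 759, 546 and 524 after PH. The groups did not overlap, and the change was 1.05 ± 0.23 (SE; limma adjusted p = 0.0266). Protein C missed the threshold (limma adjusted p = 0.0670) although its normal libraries, 434 to 509 FPKM, all exceeded its PH libraries, 196 to 340.0.

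**Figure D2:**
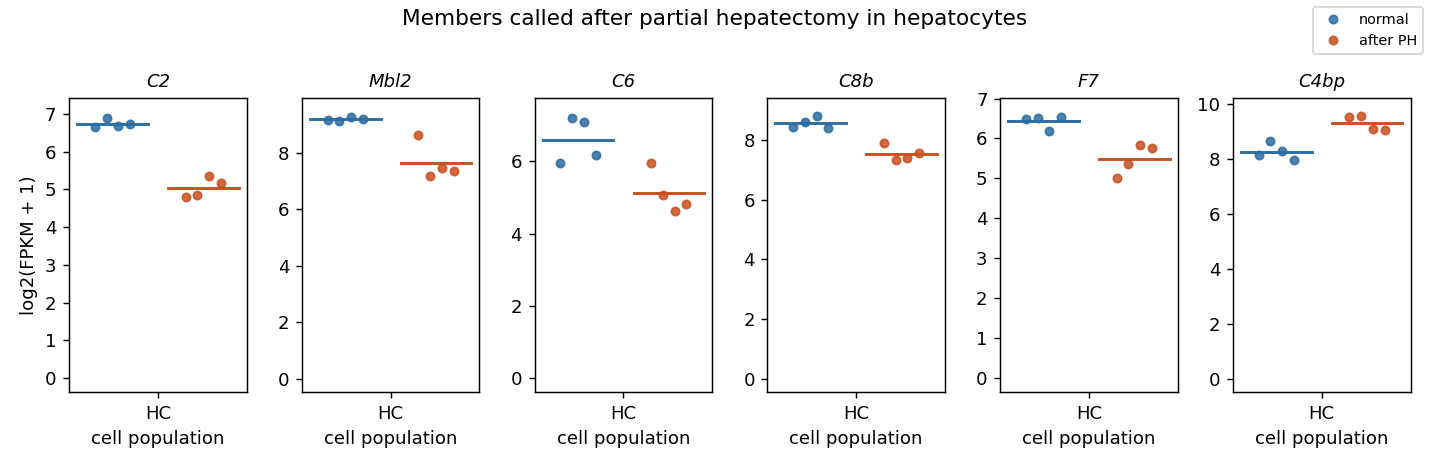
log2(FPKM + 1) of the 6 members that passed the test in hepatocytes, in the 4 normal and 4 PH HC libraries (points) with the group mean (bars). PH points lie below all normal points for C2, Mbl2, C8b and F7, touch them for C6 and lie above them for C4bp.

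The HC libraries differed in their FPKM sums, with normal HC 1 and 4 and PH HC 3 and 4 above the others, and 15 of the 36 members tested differed between the sides of that split (limma adjusted p under 0.05), against 46.2% of all genes. The changes after PH within the low-sum and the high-sum libraries were -1.97 and -1.44 for C2, -1.62 and -1.34 for C6, -1.11 and -0.94 for C8b, -1.29 and -1.79 for Mbl2, 1.10 and 1.01 for C4bp, and -1.18 and -0.71 for F7. For these 6, PH and normal libraries did not overlap, so the same direction in both was fixed in advance. The split thus gives no added support for the direction. With the split as a term, an alternative added after seeing the data, 13 members passed the limma test, against 21.8% of all genes: Proc, Serpind1, Klkb1, Masp2 and Serpinc1 were then also lower and Mbl1 and Pros1 higher. C2 passed in all 8 fits that left out 1 library, Mbl2 in 4, C4bp and C8b in 3, and C6 and F7 in 2. Of 66 other genes of the pathways, 32 were tested in HC and 7 passed, 5 higher and 2 lower. The largest rises were Serpina10 (protein Z-dependent inhibitor, 1.51, limma adjusted p = 0.0045) and the fibrinogen chain Fgg (1.29, limma adjusted p = 0.0143), and the falls were Susd4 (-1.78, limma adjusted p = 0.0047) and C1ra (-1.05, limma adjusted p = 0.0288).

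The 6 members highest in KC were the 3 chains of C1q, properdin (Cfp, which stabilises the alternative convertase), C6 and the C3a receptor C3ar1. In normal KC, C1qb stood at 3969 and 3766 FPKM, C1qa at 3769 and 3503, and C1qc at 3968 and 3428. The next population, blood, had a mean of 225 FPKM for C1qb. Properdin was at 1171 and 1062 FPKM, C6 at 379 and 356, and C3ar1 at 69.6 and 57.7, each above every library of any other normal population. For C6 the next highest population was HC, with a mean of 103 FPKM, and 2 HSC libraries stood at 71.5 and 101. C5ar1, the receptor of C5a, was highest in normal blood (32.9 and 30.8 FPKM) and overlapped with KC (33.4 and 21.4).

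In KC, 8 of the 19 members tested changed after PH, against 36.8% of all genes; 2 rose, against 16.7%, and 6 fell, against 20.1%. The members' share was thus near the background. C1qb was at 5299, 5328 and 6035 FPKM after PH, above both normal libraries, a change of 0.52 ± 0.11 (SE; limma adjusted p = 0.0174). Properdin was at 1468, 1486 and 1544 FPKM, also without overlap, a change of 0.43 ± 0.10 (SE; limma adjusted p = 0.0255). C1qa and C1qc did not pass: after PH they stood at 4084, 3986 and 4828 FPKM and at 4113, 3874 and 5001, and the C1qc libraries overlapped with normal.

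Of the 6 members that fell in KC, F8, Cd55, Pros1 and Tfpi were highest in normal LSEC, Masp1 in HSC and C2 in NPD. F8 (factor VIII, the cofactor of factor IXa) went from 114 and 162 FPKM to 5.91, 4.24 and 6.07, a change of -4.43 ± 0.22 (SE; limma adjusted p = 0.0012). Masp1, a protease of the lectin pathway, went from 38.3 and 41.9 FPKM to 4.37, 3.71 and 3.11, a change of -3.13 ± 0.17 (SE; limma adjusted p = 0.0012). Cd55 (decay-accelerating factor, a membrane inhibitor of the convertases) went from 190.4 and 206 FPKM to 36.7, 32.1 and 49.7 (change -2.32, limma adjusted p = 0.00167). PH values lay far below normal for all 3. Protein S (Pros1, the cofactor of protein C) fell by 1.48, tissue factor pathway inhibitor (Tfpi) by 1.15 and C2 by 0.60 (limma adjusted p = 0.00367, 0.0101 and 0.0115), from 118 and 147, 76.1 and 98.6, and 71.1 and 65.3 FPKM. Their PH libraries stood at 42.7, 41.9 and 56.2, at 41.7, 43.9 and 31.1, and at 42.9, 44.3 and 46.5.

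In the same libraries all 6 genes of the LSEC list fell, from a sum of 3329 to 4606 FPKM to 278 to 509, and 5 of the 6 genes of the endothelial list fell, from 1385 to 1751 to 309 to 554. The Kupffer list rose from 9718 to 10830 to 24780 to 26290, with 3 of its 6 genes called higher. No gene of these lists was at 0 in every library, and their part in the members' changes was not tested. F8, Masp1, Cd55 and Pros1 passed in all 5 fits that left out 1 library. C1qb and properdin passed in 1 of the 5. The count of members called was 5 without normal KC 1, 4 without normal KC 2 and 5 without PH KC 1. Of 30 other pathway genes tested, 15 passed, 6 higher and 9 lower, led by C1qbp (1.66) and the collectin Colec12 (1.57) among the rises and Thbs1 (thrombospondin, -3.80) and the thrombin receptor F2r (-3.40) among the falls.

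C1q was also measured outside KC, and there the 3 chains fell together in BEC and NPD after PH. In BEC, C1qa was at 19.7, 60.4, 56.3 and 19.1 FPKM in normal liver and at 0.195 and 0 after PH, a change of -4.99 ± 0.49 (SE). C1qb and C1qc fell by 4.60 and 4.75 (limma adjusted p = 0.0149 for C1qb), with no overlap of libraries; C1qa and C1qc reached 1 FPKM only in the normal libraries and so entered the test through them alone. In NPD, C1qa was at 75.8 and 24.99 FPKM in normal liver and at 2.12 and 1.77 after PH, and the 3 chains fell by 3.93, 3.53 and 3.68 (limma adjusted p = 0.0158, 0.00921 and 0.00962 for C1qa, C1qb and C1qc). The Kupffer list fell from 55.8 to 221 FPKM to 2.59 to 3.45 in BEC, with 5 of 6 genes called lower and Timd4 and Adgre1 at 0 in both PH libraries, and from 69.6 to 161 to 18.9 to 24.6 in NPD, with 4 of 6 called lower. Its part in the C1q changes was not tested.

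The C1q protein is built from equal numbers of the 3 chains, and their transcripts were near balance in most libraries. Over the 28 libraries with all 3 chains at 10 FPKM or more, the ratio of the highest to the lowest chain had a median of 1.31 and ran from 1.05 to 9.89. The LSEC libraries after PH stood apart. There C1qb was at 131, 182, 131, 82.9 and 121 FPKM, C1qa at 25.2, 21.1, 26.2, 7.52 and 18.6, and C1qc at 17.9, 18.4, 19.7, 6.63 and 16.9. In normal LSEC the chains lay closer together: C1qb was at 58.4, 26.8 and 3.83 FPKM, C1qa at 53.2, 17.5 and 1.68, and C1qc at 43.9, 16.5 and 2.32. C1qb alone of the 3 rose in LSEC, by 2.66 ± 0.67 (SE; limma adjusted p = 0.0438), and C1qa and C1qc changed by 0.47 and 0.21 (limma adjusted p = 0.770 and 0.886). In PH Thy1 cells C1qb was also the highest chain, at 40.3 and 83.9 FPKM, with C1qa at 5.22 and 12.4 and C1qc at 5.47 and 9.75, but no chain passed the test there. The Kupffer list in LSEC was 4.79 to 111 FPKM in normal liver and 2.32 to 13.4 after PH, with no gene called. The counting rule for strand is not given in the sources used here, so reads of a transcript on the opposite strand at C1qb cannot be told apart from its own.

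The promoters of C1qb and C1qc are shown because these neighbouring genes were near balance in KC and parted in LSEC after PH; C1qa was not matched. Neither holds any of the 5 motifs, so no capitals appear. They lie at chr4:136886151-136886450 and chr4:136892865-136893164 of GRCm38.p6, both on the minus strand.
C1qb: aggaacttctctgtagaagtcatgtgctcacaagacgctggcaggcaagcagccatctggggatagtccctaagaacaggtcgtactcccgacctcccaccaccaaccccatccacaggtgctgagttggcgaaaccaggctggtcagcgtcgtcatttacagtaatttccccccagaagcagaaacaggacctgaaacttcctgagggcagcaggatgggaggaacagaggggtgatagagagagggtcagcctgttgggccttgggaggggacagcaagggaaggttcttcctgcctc
C1qc: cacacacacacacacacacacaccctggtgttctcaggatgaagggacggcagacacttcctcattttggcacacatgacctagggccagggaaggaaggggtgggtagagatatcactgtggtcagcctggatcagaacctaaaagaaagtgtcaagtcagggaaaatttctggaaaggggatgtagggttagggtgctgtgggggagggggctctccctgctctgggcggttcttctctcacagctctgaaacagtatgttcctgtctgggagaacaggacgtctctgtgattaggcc

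**Figure D3:**
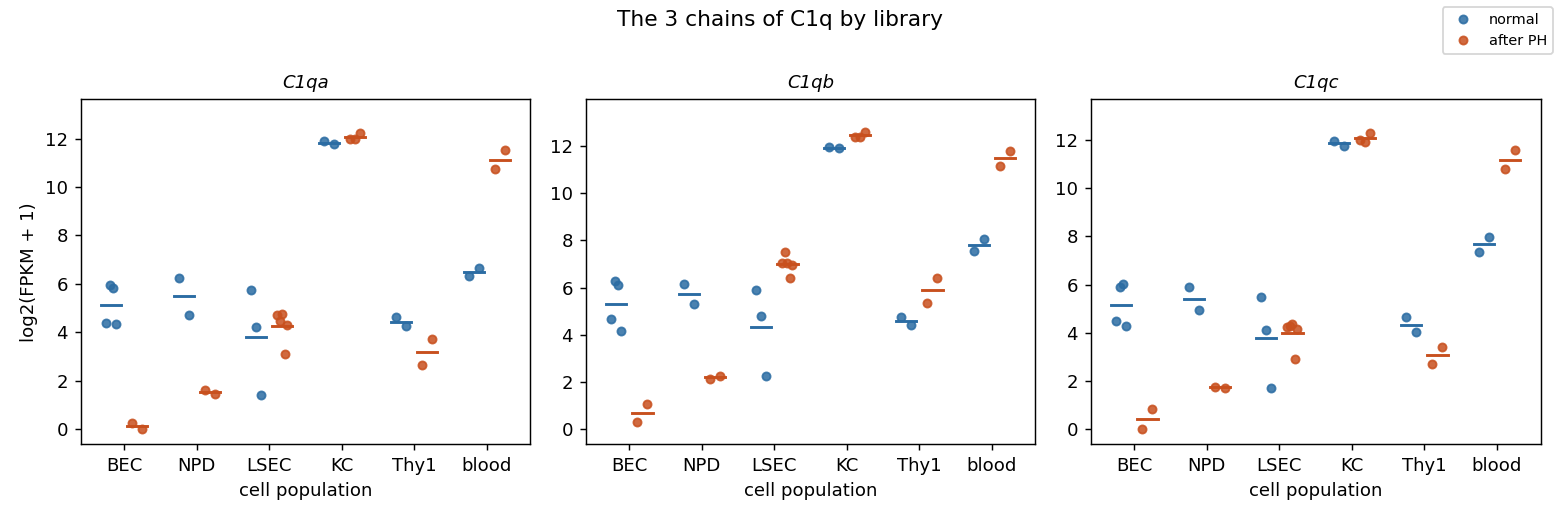
log2(FPKM + 1) of C1qa, C1qb and C1qc by library in 6 populations, normal (blue) and after PH (orange), with group means as bars. All 3 chains are highest in KC, low in BEC and NPD after PH and high in blood after PH; in LSEC after PH only C1qb lies above all normal points.

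Of the members tested, those highest in an endothelial population were Cd55, F8, Pros1 and Tfpi (LSEC) and Thbd and Vwf (EC). In normal LSEC, Cd55 stood at 551, 558 and 462 FPKM, F8 at 387, 516 and 348, Pros1 at 274, 315 and 272, and Tfpi at 159.7, 203 and 139. EC followed for all 4: F8 was at 269 and 236 FPKM and Tfpi at 126 and 72.0, below every LSEC library, and for Pros1 (252 and 204) this held too, while Cd55 (546 and 239) overlapped. Pros1 was not confined to endothelial populations: normal HSC stood at 220.7 and 204.5 FPKM, which overlapped with EC. Von Willebrand factor (Vwf, which carries factor VIII and tethers platelets) was at 289 and 997 FPKM in normal EC and ranged from 0.311 to 272 in normal LSEC. Thrombomodulin (Thbd, the endothelial receptor that turns thrombin toward protein C) was at 179 and 297 FPKM in EC, 217 and 184 in Thy1 cells and 124, 107 and 315 in LSEC, so that these 3 populations overlapped.

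In LSEC, 4 of the 14 members tested changed after PH, against 8.46% of all genes; 3 rose, against 4.15%, and 1 fell, against 4.31%. Thbd changed most. It was at 124, 107 and 315 FPKM in normal LSEC and at 2203, 1529, 1476, 2247 and 1841 after PH, far above every normal library, and the change was 3.50 ± 0.34 (SE; limma adjusted p = 0.00123). Factor B was at 0, 3.02 and 4.95 FPKM and then at 15.2, 26.7, 13.99, 24.5 and 15.7, again without overlap, a change of 2.76 ± 0.51 (SE; limma adjusted p = 0.0133). C2 was low throughout, at 6.91, 3.66 and 4.66 FPKM before and 1.27, 1.14, 3.06, 0.422 and 2.16 after, a change of -1.27 ± 0.35 (SE; limma adjusted p = 0.0492). Cfb and its close neighbour C2 thus changed in opposite directions in LSEC, as they did in NPD. Both genes are abundant in HC, and 70.41% of values of such members outside HC were 0. The hepatocyte list in LSEC summed to 0.254 to 2.75 FPKM in normal and 0.0901 to 0.545 after PH, and its part was not tested.

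Thbd and Cfb passed in all 8 fits that left out 1 LSEC library, C1qb in 2 and C2 in 1. With a pseudocount of 0.1 only Thbd passed. Beside these, 2 of the 6 LSEC markers fell (sum 5185 to 10010 FPKM in normal, 1794 to 5853 after PH) and 1 of the 6 endothelial markers fell (3293 to 4109, then 3207 to 3896). No list gene was at 0 in every library, and their part in the changes was not tested. F8 did not pass in LSEC: its PH libraries were at 129, 53.0, 321, 92.8 and 240.4 FPKM, all below normal, with a limma adjusted p of 0.0988. Vwf did not pass (limma adjusted p = 0.171), with PH libraries at 243, 356, 161, 559.8 and 254 FPKM that overlapped with normal. Among 33 other pathway genes tested, 4 rose, led by Itgb2 (a chain of complement receptor 3, 2.64) and Mcfd2 (an export receptor of factors V and VIII, 1.70), and 4 fell, led by the complement receptor Vsig4 (-2.30) and Susd4 (-2.04).

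In EC no member passed the limma test of PH (18 tested, 0.0249% of all genes called); 5 had an unadjusted p under 0.05, against 10.8% of all genes. Thbd was among these, at 761, 632 and 439 FPKM after PH against 179 and 297 in normal EC, without overlap (change 1.36, limma adjusted p = 0.234). The difference between the changes in LSEC and EC was tested directly and passed for 0 of 19 members, against 0.00780% of all genes, with 5 at an unadjusted limma p under 0.05, against 7.18%. For Thbd the change was larger in LSEC by 2.13 ± 0.53 (SE; limma adjusted p = 0.316). In Thy1 cells (19 tested, 0.00747% of all genes called) no member passed limma and 11 had an unadjusted p under 0.05, against 18.1%. Thbd stood at 637 and 1276 FPKM there after PH (limma adjusted p = 0.155). The endothelial list in Thy1 cells was 1169 to 1204 FPKM in normal and 1235 to 2455 after PH, above the Thy1 and portal fibroblast list after PH (68.6 to 581, against 1210 to 1427 in normal); their part was not tested.

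**Figure D4:**
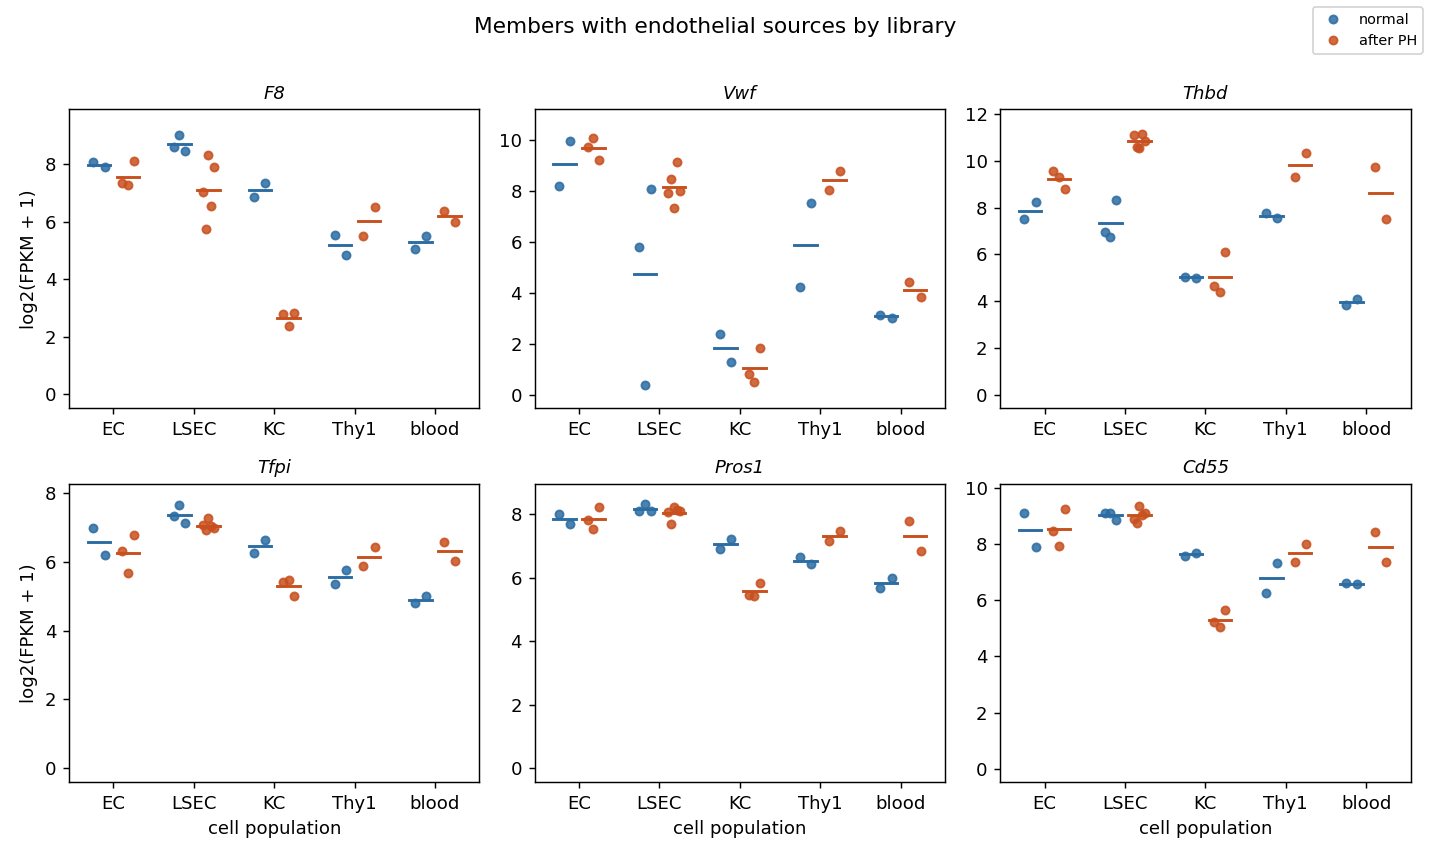
log2(FPKM + 1) of 6 members with endothelial sources by library in EC, LSEC, KC, Thy1 cells and blood, normal (blue) and after PH (orange), with group means as bars. Thbd points after PH lie above the normal points of the same population in EC, LSEC, Thy1 cells and blood, and F8, Pros1, Tfpi and Cd55 points after PH lie below normal in KC.

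The members highest in NPD were led by C3, the central protein of complement, the member with the highest level in any library. C3 stood at 8613 and 10530 FPKM in normal NPD, above 4806 and 2303 in Thy1 cells, 2436 to 2898 in HC and 466 to 984 in cBEC and BEC together. The C1 inhibitor Serping1 was at 3146 and 2837 FPKM in NPD, C2 at 1069 and 834, C4b at 472 and 582, and tissue factor (F3, the membrane protein that starts coagulation) at 141 and 159.6. Serping1, C2, C3 and C4b were above every library of other normal populations, and Thy1 cells came next for each. F3 overlapped with cBEC (82.8 to 185 FPKM). The mesothelial list, at 4806 to 5143 FPKM in NPD and 1561 to 2336 in Thy1 cells, was 11.04 to 32.1 in normal BEC; its part in these levels was not tested. Protein C was measured in bile duct cells as well, at 141 to 177 FPKM in normal BEC and 29.3 to 217 in cBEC, the highest levels outside HC.

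In NPD, 9 of the 18 members tested changed after PH, against 15.2% of all genes; Cfb rose, against 9.65% of genes, and 8 fell, against 5.51%. The median change of those tested was -0.94, beside 0.09 for all genes. Serping1 was at 903 and 1151 FPKM after PH, a change of -1.55 ± 0.24 (SE; limma adjusted p = 0.0198). C2 was at 288 and 361 FPKM, a change of -1.55 ± 0.24 (SE; limma adjusted p = 0.0203), and C4b at 163 and 178, a change of -1.62 ± 0.20 (SE; limma adjusted p = 0.0141). The libraries of these 3 did not overlap. F3 fell to 93.6 and 77.0 FPKM (change -0.81, limma adjusted p = 0.0491) and Tfpi from 77.7 and 54.3 to 30.2 and 31.0 (change -1.06, limma adjusted p = 0.0353). Cfb went the other way, from 514 and 296 FPKM to 939 and 1142 (change 1.40, limma adjusted p = 0.0468), and NPD then exceeded every PH HC library (379.5 to 637). C3, at 6920 and 8475 FPKM after PH, did not pass. Serping1, C2, C4b, Cfb and C3 are also abundant in HC. The hepatocyte list in NPD was at 0 in normal and at 0 to 25.43 FPKM after PH, and its part was not tested.

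The fall of C1q in NPD was given above. Without either of the PH NPD libraries (PH NPD 1 or PH NPD 2) no member passed in NPD, where a lone PH library was assumed to vary like the normal ones. In these libraries 2 of 6 stellate, 2 of 6 Thy1 and portal fibroblast markers and 1 of 6 endothelial markers were also called lower, while Pdgfra of the Thy1 and portal fibroblast list (1.62) and Fn1 of the monocyte list (1.32) were called higher. The mesothelial list was 3655 to 4182 FPKM after PH, with none called, and the part of these lists was not tested. Of 31 other pathway genes tested, 13 passed, 6 higher and 7 lower. Plaur (the urokinase receptor, 2.10) was among the rises, and Colec11 (-4.07) and Vsig4 (-3.95) led the falls.

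In BEC, 9 of the 19 members tested changed after PH, against 1.81% of all genes; 3 rose, against 0.233%, and 6 fell, against 1.57%. The risers were C4b, Cfi and Cfb. C4b was listed at 0 in all 4 normal libraries and stood at 76.3 and 47.3 FPKM after PH; no fold is given against a group at 0. C4b reached 1 FPKM only in the PH libraries, and Cd55, C1qa and C1qc only in normal ones, so these 4 entered the test only through the group where they are high. Cfi was at 16.0, 17.6, 27.2 and 17.2 FPKM in normal BEC and at 125 and 105 after PH, a change of 2.53 ± 0.23 (SE; limma adjusted p = 0.00219). Cfb was at 16.8, 15.6, 40.8 and 17.0 FPKM and then at 103 and 133, a change of 2.44 ± 0.36 (SE; limma adjusted p = 0.0181). Both were without overlap, and normal BEC 3 was the highest normal library for both. These 3 genes are abundant in HC, and 70.41% of such values outside HC were 0; the hepatocyte list in BEC summed to 8.19 to 11.8 FPKM in normal and 9.12 to 9.53 after PH, with Alb, Apoa1, Ttr, Cps1 and Cyp2e1 at 0 in every library.

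Besides C1q, Cd55, properdin and Tfpi fell in BEC. Cd55 was at 2.62, 14.2, 18.04 and 7.46 FPKM in normal BEC and at 0 and 0.0798 after PH (change -3.22). Properdin went from 10.4, 25.4, 25.4 and 10.2 FPKM to 2.40 and 1.41 (change -2.59, limma adjusted p = 0.0235) and Tfpi from 7.04, 9.54, 10.7 and 8.83 to 2.85 and 2.72 (change -1.39, limma adjusted p = 0.0209). All 3 were low before PH and did not overlap after it. Of 6 genes each, 4 LSEC and 3 endothelial markers were called lower in the same libraries, from sums of 89.6 to 335 and 54.1 to 164 FPKM to 9.31 to 12.7 and 16.3 to 17.2, and their part was not tested. Cfi passed in all 6 fits that left out 1 library, and 2 members passed without PH BEC 1 as well as without PH BEC 2. In BEC 28 other pathway genes were tested and 4 fell, led by Vsig4 (-3.97) and the ficolin Fcna (-3.81).

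In cBEC, 0 of 19 members passed the limma test (0.0681% of all genes called) and 7 had an unadjusted p under 0.05, against 10.2%. C4b was at 37.4, 0, 0.712 and 1.6 FPKM in normal cBEC and at 88.0 and 47.0 after PH, without overlap (limma adjusted p = 0.481). Normal cBEC 1 stood apart in several members: it alone had C4bp, at 131 FPKM against 0 in the other 3, and its Proc was 29.3 FPKM against 158 to 217. The hepatocyte list reached 864 FPKM in the highest normal cBEC library, where the median was 12.7. Without normal cBEC 3 the count was 3, and without normal cBEC 1 it was 1.

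**Figure D5:**
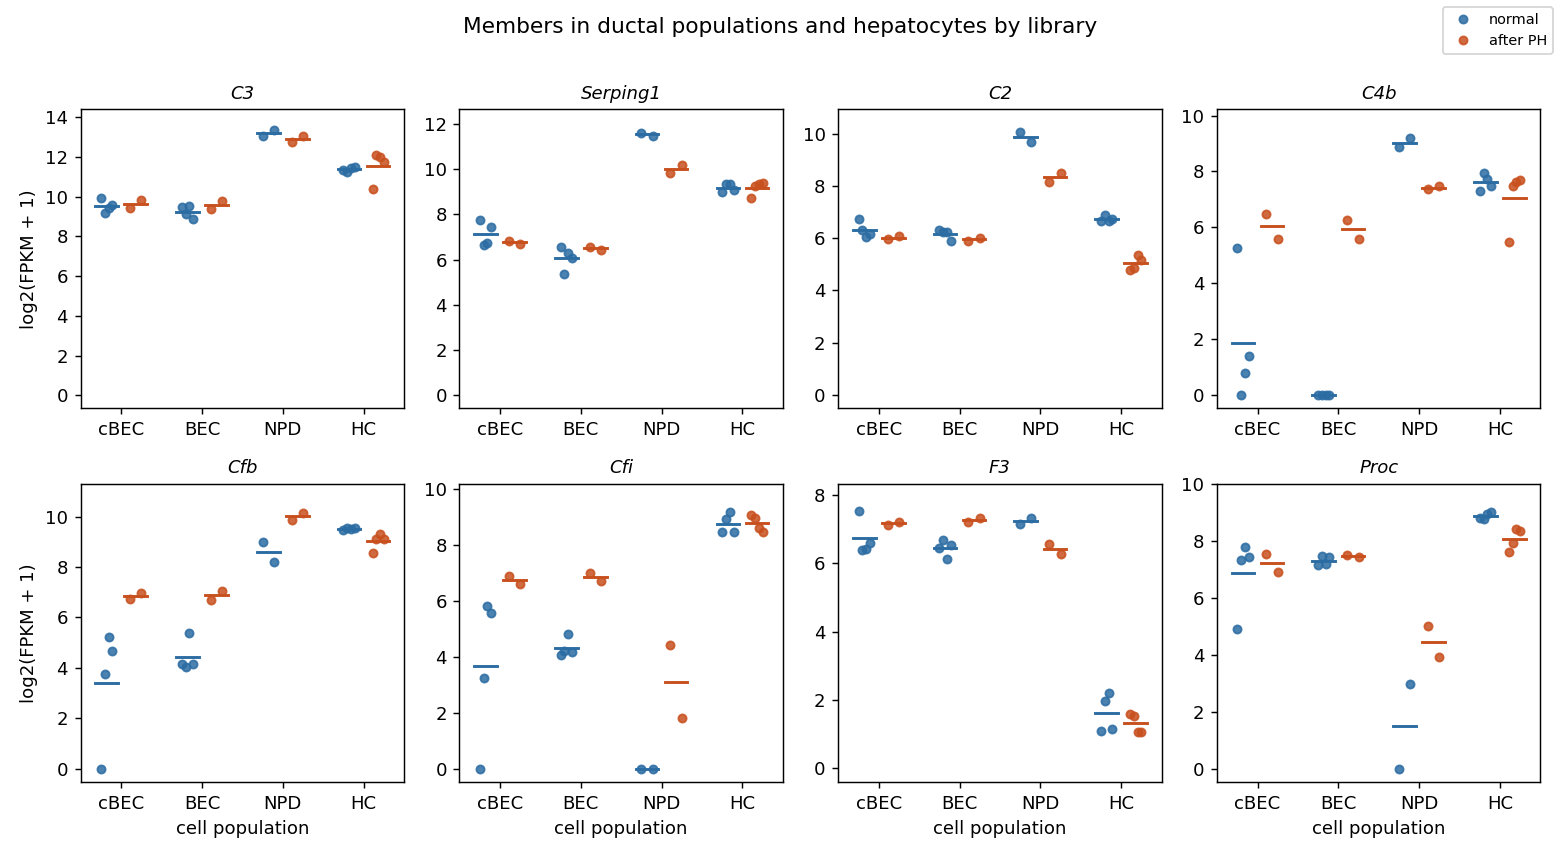
log2(FPKM + 1) of 8 members by library in cBEC, BEC, NPD and HC, normal (blue) and after PH (orange), with group means as bars. C3, Serping1, C2 and C4b are highest in normal NPD; Cfb and Cfi points after PH lie above normal in BEC, and C4b points there rise from 0.

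Stellate cells were the highest source of Masp1, at 526 and 629.6 FPKM in normal HSC and 769.9, 567 and 608 after PH, against a mean of 113 in normal LSEC. The change was not called. Serping1 stood at 1032 and 1237 FPKM in normal HSC and at 1409, 1773 and 1805 after PH, the highest population after PH. No member passed limma in HSC (17 tested, 0.00853% of all genes called) and 5 had an unadjusted p under 0.05, against 8.48%: C1qa, C1qc, Cd55, F8 and Vwf, all lower. The Kupffer and LSEC lists in HSC were 46.5 to 675 and 193 to 1041 FPKM in normal and 0.515 to 39.1 and 63.0 to 105 after PH, with no gene called; their part was not tested.

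Blood cells were the highest source of F13a1 (the crosslinking subunit of factor XIII), at 59.1 and 39.5 FPKM in normal blood and 46.8 and 37.4 after PH, and of C5ar1. F5 was also measured there, at 13.1 and 14.4 FPKM, the highest level outside HC. After PH 20 of the 23 members tested changed, against 64.0% of all genes; 19 rose, against 24.3%, and F5 fell, against 39.7%. The median change of the members tested was 1.55, beside -0.31 for all genes. In the same libraries all 6 Kupffer markers rose (611 to 760 FPKM, then 8641 to 15500), as did all 6 LSEC (738 to 832, then 2580 to 5828) and all 6 endothelial markers (299.9 to 317, then 1017 to 2100). All 6 T and NK cell markers, all 4 B cell markers and 5 of 6 neutrophil markers fell. Of 6 platelet markers 2 rose (8.85 to 12.1, then 133 to 245) and Gp5 was at 0 in both PH libraries. The part of these lists in the members' changes was not tested.

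The macrophage members rose in PH blood. C1qa went from 79.3 and 99.4 FPKM to 1703 and 2925, a change of 4.64 ± 0.32 (SE; limma adjusted p = 0.000985). C1qb went from 184 and 265 FPKM to 2257 and 3533 (change 3.67, limma adjusted p = 0.00146) and C1qc from 164 and 249 to 1761 and 3009 (change 3.50, limma adjusted p = 0.00199). All 3 were thus between normal blood and KC. C6 went from 14.3 and 23.7 FPKM to 123 and 209 (change 3.05), properdin from 180.5 and 182 to 529.9 and 889 (change 1.92) and C3ar1 from 9.03 and 9.08 to 41.5 and 54.7 (change 2.27), with limma adjusted p of 0.00267, 0.00502 and 0.00129. None of these overlapped.

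Thbd had the largest change in blood, from 13.2 and 16.2 FPKM to 855 and 184, which was 4.67 ± 0.74 (SE; limma adjusted p = 0.0057); the PH libraries differed widely from each other. Among convertase genes C4b went from 3.26 and 9.51 FPKM to 43.7 and 91.7 (change 3.27), C2 from 1.90 and 3.88 to 21.4 and 32.3 (change 2.86) and Cfb from 5.25 and 8.46 to 44.0 and 31.0 (change 2.30), with limma adjusted p of 0.00724, 0.00287 and 0.00316. F10 was at 0.627 and 0 FPKM and then at 4.89 and 5.57. F10, F7 and F3 reached 1 FPKM only in the PH libraries, so these 3 entered the test only through that group. C4b, C2, Cfb, F10 and F7 are abundant in HC. The hepatocyte list in blood was at 0 in normal and at 0 to 20.98 FPKM after PH, and its part was not tested. F5 fell to 2.16 and 2.71 FPKM, a change of -2.10 ± 0.19 (SE; limma adjusted p = 0.00148). The other 8 that rose were F7, C5ar1, Pros1, Tfpi, Cd55, Vwf, F3 and F8, by 0.90 to 1.55. Without normal blood 1 only 2 members passed, and without normal blood 2 it was 8. Of 38 other pathway genes tested, 13 rose, led by urokinase (Plau, 4.62) and the protein C receptor Procr (3.70), and 8 fell, led by F2rl2 (-3.56) and complement receptor Cr2 (-2.61).

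The change after PH was tested for a difference between blood and KC, and 18 of 23 members passed, against 59.9% of all genes. Every one of the 18 changed more upward in blood. F7 and F10 are among them only through PH blood, since both were at 0 in every KC library. F8 differed most, with a change larger in blood by 5.33 on the log2 scale (limma adjusted p = 3.5e-05), since it fell in KC and rose in blood. Cd55, Masp1, Pros1 and Tfpi, which fell in KC, also differed, by 3.63, 3.48, 2.95 and 2.55, and C1qa by 4.40. These tests share no libraries between the 2 responses.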

How the data were processed

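RNA from 10 sorted mouse liver populations was sequenced from standard Illumina libraries, per the labels. The deposited table holds FPKM, as the authors' own name for it says, with 1 column for each of 55 libraries; 0 sample columns were left unmapped. CASAVA 1.8.2, Bowtie 1.0.0 and the build mm9 are named in the submitters' processing notes; the counting tool and its handling of strand and of reads shared by near-identical genes (such as C4b and its paralog) are not given in the sources used here. FPKM do not keep the read depth, so no counting interval or limit of detection is given, and the number of libraries (2 to 5 in a group) limits the precision. Starts in the table count from 0 (955 of 965 miRNA hairpins then have the RefSeq length) and were raised by 1.

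Where a symbol had several rows, the most abundant one was kept. limma 3.58.1 in R 4.3.3 was fitted to log2(FPKM + 1) with trended and robust variances, two-sided, with Benjamini-Hochberg adjustment over all genes tested and a threshold of 0.05. Fits of PH against normal used the libraries of that population only, source contrasts the 27 normal libraries, and differences of responses the groups compared. The fits were tested on simulated data. The members, gene lists, marker lists and tests were chosen with earlier results of these data known. By rule every member is named with its highest population, as are all members past the threshold (the 12 largest in blood) and the 2 largest rises and falls among 66 of 68 other pathway genes that are in the table. A gene that met this rule is not reported here.

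Alternatives were quantile normalization, a pseudocount of 0.1, upper-quartile scaling, no filter, the mean over a symbol's rows, a single fit of all groups, keeping only the 19570 genes that stayed under 10 FPKM in hepatocytes, a replicate block and leaving out each library. The split of the HC libraries by FPKM sum was chosen after seeing the data. Replicates shared at most 1.51% of their nonzero values exactly, so none were merged. Plots used matplotlib 3.10.9 under Python 3.11.15.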

Additional observations from a re-analysis of the deposited data

Results flagged for a closer look

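The response to PH differed between blood and KC for 18 members, by limma's test of the difference itself (adjusted p under 0.05, against 59.9% of all genes), each with the change in blood minus that in KC above 0. On the log2 scale the difference among complement members was 4.40 for C1qa, 4.08 for C4b, 3.63 for Cd55, 3.50 for C6, 3.48 for Masp1, 3.46 for C2, 3.28 for C1qc, 3.15 for C1qb, 2.45 for Cfb, 2.14 for C3ar1 and 1.49 for Cfp. Among coagulation members it was 5.33 for F8, 4.66 for Thbd, 2.95 for Pros1, 2.55 for Tfpi, 2.29 for F10, 1.84 for Vwf and 1.55 for F7. Of these, 17 passed in all 9 fits that left out 1 library; Vwf passed in 2 of the 9, with a limma adjusted p of 0.0445 over all libraries and up to 0.153 without 1. F7 and F10 were at 0 in every KC library and reached 1 FPKM only in PH blood. They entered the test of the difference, and the fits that left out 1 library, only through that group. The Kupffer, LSEC and endothelial lists rose in PH blood, and the LSEC and endothelial lists fell in PH KC. The part of these lists in the differences was not tested.

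Among 69 groups of 4 or 5 libraries with a member at its highest or past the threshold, 4 had a library far from the others by Dixon's test at 95%, where chance gives about 1 in 20. Normal BEC 3 stood at 40.8 FPKM for Cfb, where the other 3 spanned 15.6 to 17.0, and at 27.2 FPKM for Cfi, where they spanned 16.0 to 17.6. PH HC 1 stood at 394 FPKM for Mbl2, where the others spanned 144 to 173, and PH HC 2 at 454 FPKM for Mbl1, where the others spanned 615 to 637.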

How the results depend on the processing

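Every member past the threshold kept the direction of its change under every alternative in which it was tested. For PH against normal this was largely fixed in advance, since no called member had overlapping groups. Leaving out a library, another pseudocount or no filter could then not turn the direction. The counts of members called moved as follows. With a single fit of all groups the count was 5 in cBEC, 1 in EC, 8 in HSC and 4 in Thy1 cells in place of 0, and 11 in HC in place of 6. With no filter it was 4 in BEC and 3 in NPD in place of 9, and 2 in LSEC in place of 4. With a pseudocount of 0.1 it was 1 and with quantile normalization 2 in LSEC. With the FPKM-sum split as a term it was 13 in HC. Restriction to genes low in hepatocytes, which leaves 14 members, gave 5 in NPD, 2 in LSEC, 5 in KC, 12 in blood and 10 for blood against KC, and for the sources 1 in cBEC, 1 in BEC, 3 in NPD, 1 in HSC and 3 in Thy1 cells.

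The replicate block gave 3 members in HC, 0 in LSEC, 13 in KC (in place of 8) and 4 in Thy1 cells. In HC and LSEC the numbers did not pair the libraries. Same-numbered deviations correlated at -0.323, 0.574, -0.672 and 0.437 in HC and at -0.018, -0.239 and -0.109 in LSEC. Not every library correlated best with its own number in HC, and none did in LSEC. In cBEC, BEC, NPD, HSC and Thy1 cells, with 2 shared numbers each, every library correlated best with its own number (0.032 to 0.129). In EC, KC and blood, also with 2 shared numbers each, none did (-0.158 to 0.132). With 2 libraries on each side, as in NPD, Thy1 cells and blood, the first match fixes the second. The matches are thus at most a weak hint from the data and not the design.

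Leaving out each library gave 0 to 3 members in cBEC (3 without normal 3, 1 without normal 1), 2 to 9 in BEC (2 without PH 1 or PH 2), 0 to 12 in NPD (0 without PH 1 or PH 2), 1 to 7 in HC (1 without normal 3, PH 2 or PH 4, 3 without normal 1, 2 or 4), 0 to 0 in EC, HSC and Thy1 cells, 2 to 6 in LSEC (2 without normal 2, PH 1, PH 4 or PH 5), 4 to 12 in KC (5 without normal 1, 4 without normal 2, 5 without PH 1) and 2 to 21 in blood (2 without normal 1, 8 without normal 2). For sources it gave 3 to 6 in cBEC, 4 to 5 in BEC, 8 to 8 in NPD, 30 to 31 in HC, 7 to 7 in EC, 6 to 7 in LSEC, 9 to 14 in KC (9 without normal 2), 5 to 10 in HSC (10 without normal 1), 6 to 10 in Thy1 cells and 5 to 9 in blood (5 without normal 2). For differences of responses it gave 0 to 0 for LSEC against EC and 17 to 20 for blood against KC. A lone library left in a group was assumed to vary like the other group. Depth is unknown, so values near 0 carry no limit of detection.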
